A study of Mus musculus with 2 samples.

Results

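Conventional type 1 dendritic cells (cDC1s) were sought in 2 single-cell RNA-Seq libraries from mouse pancreatic tumors by a gate on transcript counts. A droplet barcode entered the gate when it was a kept cell (at least 500 genes, 1000 to 60000 unique molecular identifiers [UMIs], at most 15% of UMIs from mt- genes) with at least 2 UMIs of Xcr1 and Clec9a together and at least 10 UMIs of the class II genes H2-Aa, H2-Ab1 and Cd74. It also needed less than 0.1% of its UMIs from C1qa, C1qb and C1qc, and no UMI of Cd3e, Cd79a or Ccr7. Of 24160 kept cells, 50 passed, 20 of 11713 from the KPC-shV tumor and 30 of 12447 from the library labelled KPC-shZEB1. The members were thus chosen by the measured counts of these 11 genes, which are given as values only. The other 9268 kept cells with at least 10 class II UMIs, 2836 and 6432 by library, served as the comparison group and are called other class II cells.

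Each library was made from 1 orthotopic tumor, grown after KPC cells were injected into the pancreas of a mouse. KPC cells are a pancreatic tumor line from genetically engineered mice with a Pdx-1-driven Cre, and were given either a control vector (shV) or a hairpin against Zeb1 (shZEB1), so the hairpin was in the tumor cells and not in the host's dendritic cells. The study's text describes the sequenced tumors as gemcitabine treated, while the sample labels name no drug. Hosts of the orthotopic models were 4 to 6 weeks old and of several strains, C57BL/6J among them, and the strain of these hosts was not given in the sources used here. With 1 tumor per group there was no replicate check of any difference between the libraries, so no test was run, and every interval here is an exact 95% interval that covers counting error only.

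The libraries held 130941086 and 143461224 UMIs, and kept cells had a median of 3764 and 4381 UMIs (KPC-shV first here and in every pair of values that follows). The gated cells were deeper, with a median of 20169 UMIs (11660 to 50068) and 11768.5 UMIs (2950 to 37779), and together held 461664 and 430729 UMIs. Levels are given as CPM, the UMIs of a gene per 1000000 UMIs of the cell or of the pooled cells. Each UMI is a 3′ tag of 1 molecule, so CPM was not scaled to gene length. Zeb1, the target of the hairpin, went against the label KPC-shZEB1: tumor-gated cells (at least 5 UMIs of Krt8, Krt18 and Krt19, no Ptprc) had 196 CPM of Zeb1 in 640 cells and 210 in 425 cells, a ratio of 1.07 (1.00 to 1.15). The libraries shared 46 barcodes, none of them in a gated cell.

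cDC1s are a rare dendritic lineage that takes up dead cells through receptors such as Clec9a and presents their antigens on class I molecules to CD8+ T cells. Their development depends on the transcription factors Irf8 and Batf3 and on the cytokine receptor Flt3, and the chemokine receptor Xcr1 draws them to the Xcl1 that natural killer cells and T cells secrete. In tumors they are known as a source of Cxcl9 and interleukin-12, and after activation they turn on Ccr7 and migrate to lymph nodes, so a gate that requires the absence of Ccr7 leaves out the migrating state.

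Promoters of genes described below are shown because the cDC1 program is bound by Batf3 together with Irf8, and because Cxcl9 had the largest ratio between the libraries of the interferon gamma response genes tested in the cells that carried this program. They come from RefSeq on GRCm38.p6, 250 bases before to 50 after the start of the gene, 5′ to 3′ on the strand of the gene, with a motif match in capitals. The motif searched for AP-1 and BATF factors was TGANTCA, and the one for the core of the interferon-stimulated response element was GAAA, any 2 bases, GAAA (here the GAAA pair), each on both strands. Zbtb46 encodes a transcription factor of conventional dendritic cells, Havcr2 the receptor Tim-3, Gpr141b an orphan receptor and Cxcl9 a chemokine that attracts Cxcr3+ T cells.
Zbtb46, chr2:181424339-181424638, minus strand: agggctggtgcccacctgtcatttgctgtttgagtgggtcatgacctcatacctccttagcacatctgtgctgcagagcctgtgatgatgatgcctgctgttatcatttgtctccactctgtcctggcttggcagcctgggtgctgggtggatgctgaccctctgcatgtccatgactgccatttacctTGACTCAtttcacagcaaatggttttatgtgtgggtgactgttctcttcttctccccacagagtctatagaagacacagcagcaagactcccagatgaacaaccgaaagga
Havcr2, chr11:46454681-46454980, plus strand: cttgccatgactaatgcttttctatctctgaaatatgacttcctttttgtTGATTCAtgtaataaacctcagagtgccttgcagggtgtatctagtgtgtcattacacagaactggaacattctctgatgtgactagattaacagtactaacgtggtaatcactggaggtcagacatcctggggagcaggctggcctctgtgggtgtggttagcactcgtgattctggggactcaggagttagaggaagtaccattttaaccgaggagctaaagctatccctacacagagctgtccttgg
Gpr141b, chr13:19732902-19733201, minus strand: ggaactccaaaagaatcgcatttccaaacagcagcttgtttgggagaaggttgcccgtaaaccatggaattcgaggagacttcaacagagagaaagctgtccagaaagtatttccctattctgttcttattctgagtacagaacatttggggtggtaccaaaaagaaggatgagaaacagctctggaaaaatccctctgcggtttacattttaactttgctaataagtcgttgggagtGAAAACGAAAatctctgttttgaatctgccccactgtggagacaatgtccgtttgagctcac
Cxcl9, chr5:92328030-92328329, minus strand: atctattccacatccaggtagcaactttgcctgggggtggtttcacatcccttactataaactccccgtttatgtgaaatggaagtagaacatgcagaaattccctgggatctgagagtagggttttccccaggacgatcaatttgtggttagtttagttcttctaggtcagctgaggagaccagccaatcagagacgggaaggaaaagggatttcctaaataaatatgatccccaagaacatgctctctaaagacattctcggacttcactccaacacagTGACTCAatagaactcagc
The match began 61 bases before the start in Zbtb46, 200 bases before it in Havcr2 and 12 bases before it in Gpr141b, and at base 32 after it in Cxcl9.

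Of the 33 genes in the cDC1 lists, 27 had a promoter in the table. TGANTCA was in 2 of them, 7.41% (Havcr2 and Zbtb46), and in 7.93% of all 27025 promoters. The GAAA pair was in 4, 14.8% (Dpp4, Gpr141b, Ifi205 and Tlr11), and in 3.49% of all promoters. Neither motif was in the 9 promoters found for the 10 genes that led the gated cells against other class II cells. These matches are letters in a window and not measured sites.

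The gated cells were a small share of every denominator, and the order of the libraries depended on which one was used. They made up 0.171% of kept cells in the KPC-shV library (0.104 to 0.264) and 0.241% in the library labelled KPC-shZEB1 (0.163 to 0.344), a ratio of 1.41 (0.776 to 2.62). Among class II cells the shares were 0.700% of 2856 and 0.464% of 6462, a ratio of 0.663 (0.364 to 1.23). Neutrophil-gated cells (at least 10 UMIs of S100a8 and S100a9, at least 1 of Csf3r, fewer than 10 class II UMIs) took 44.7% of kept cells in the KPC-shV library and 18.3% in the library labelled KPC-shZEB1, and without them the ratio was 0.955 (0.525 to 1.77). All 3 intervals include equal shares, so a difference in abundance of the gated cells was not detectable with 50 cells. Not all 50 carried the cDC1 lists, and the shares of the set that did are given below.

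**Figure D1:**
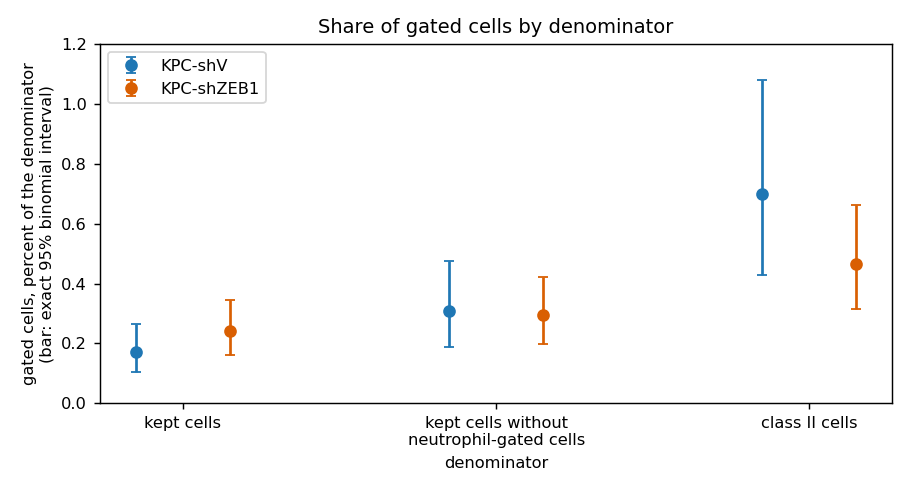
Gated cells as a percent of 3 denominators (x axis) in each library, with exact 95% binomial intervals as bars. The library labelled KPC-shZEB1 is higher over kept cells (0.241% against 0.171%) and lower over class II cells (0.464% against 0.700%), and the intervals overlap in each pair.

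The gate was checked against the cDC1 markers it did not use, with all gated cells pooled by library and with levels in CPM. Irf8 stood at 695 and 762 CPM in the gated cells and at 112 and 158 in other class II cells. Batf3 stood at 106 and 60.4 against 13.6 and 15.4. Flt3 stood at 156 and 118 against 4.39 and 9.49. The 3 defining markers outside the gate were thus several-fold above other class II cells in both libraries. Xcr1 (147 and 190 CPM) and Clec9a (327 and 374) chose the cells and are given as values only.

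The pooled levels hid a mixture. Cell by cell, the 50 gated cells fell into 3 sets, split after their values were seen by the Xcr1 and Clec9a count and by Siglech, a surface receptor of plasmacytoid dendritic cells. In 22 cells (10 and 12 by library) there were at least 5 Xcr1 and Clec9a UMIs, from 6 to 47, and no Siglech. Another 19 cells (9 and 10) had 2 to 4 such UMIs and no Siglech. The last 9 cells (1 and 8) had Siglech, at 6 to 21 UMIs each. Shares of the 22 cells were 0.0854% and 0.0964% of kept cells, a ratio of 1.13 (0.447 to 2.92). Over class II cells their ratio was 0.530 (0.210 to 1.37), and without neutrophil-gated cells 0.764 (0.303 to 1.97). All 3 intervals include equal shares.

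The 22-cell set carried the cDC1 lists throughout. Each of its cells had UMIs of 21 to 31 of the 33 listed genes (median 27.5), against 8 to 25 in the cells with 2 to 4 UMIs (median 14) and 7 to 13 in the Siglech cells (median 11). Only 3 of the 19 cells with 2 to 4 UMIs, and 0 of the 9 Siglech cells, reached 21 genes. The sets differed in depth as well, with a median of 22741.5 UMIs in the 22 cells, 14447 in the 19 and 8710 in the 9, so the number of genes seen was not compared at equal depth. The summed level of the lists, which does not grow with depth, ran from 15317 to 41071 CPM in the 22 cells, from 1151 to 25646 in the 19 and from 4394 to 6513 in the 9. The ranges of the 22 and of the 9 did not overlap. Cst3, a gene of these lists, weighs heavily in the sum, with a median of 17496 CPM beside a median sum of 28048 in the 22 cells.

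**Figure D2:**
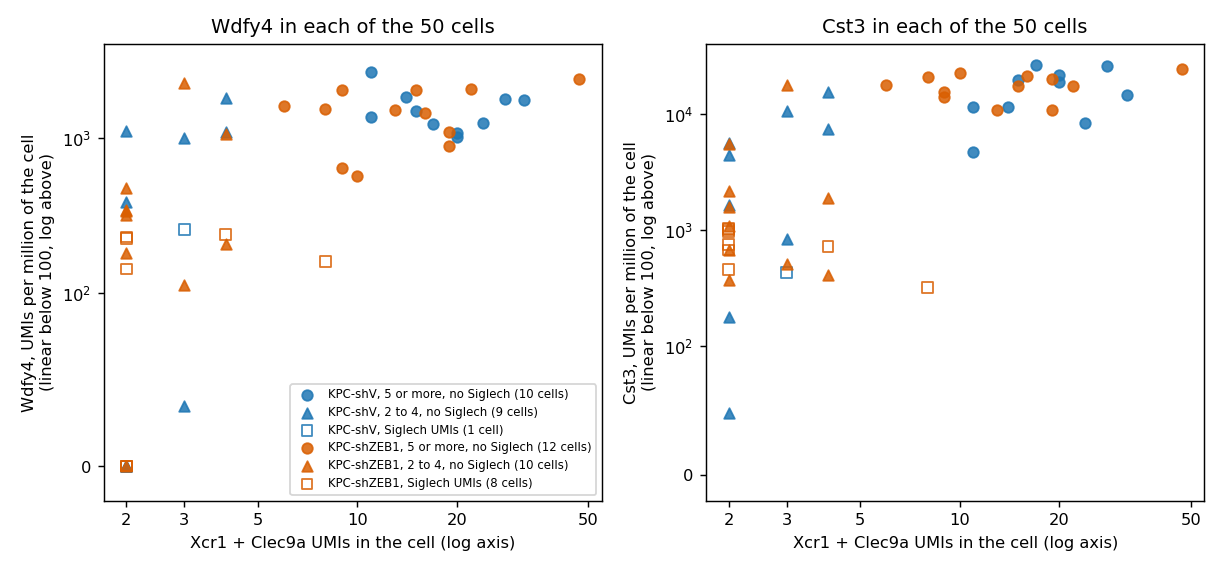
Wdfy4 and Cst3 (y axis, CPM of the cell, linear below 100 and log above) against the Xcr1 and Clec9a UMIs of each of the 50 gated cells (x axis, log), with marks for library and set. The cells with at least 5 UMIs and no Siglech lie between 570 and 2650 for Wdfy4 and between 4716 and 26161 for Cst3, while Siglech cells stay at or below 257 and 1033.

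Wdfy4, which cDC1s need for cross-presentation of cell-associated antigens, followed the sets. In the 22 cells it ran from 570 CPM (lowest) through 1500 (median) to 2650 (highest). In the 19 cells it ran from 0 through 339 to 2249, and in the 9 Siglech cells from 0 through 160 to 257. Every cell of the 22-cell set was above every Siglech cell, while the cells with 2 to 4 UMIs spanned both.

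Cst3, the protease inhibitor cystatin C and one of the most abundant dendritic cell transcripts, gave the same order. It ran from 4716 through 17496 to 26161 CPM in the 22 cells, from 47.8 through 1648 to 17769 in the 19, and from 320 through 719 to 1033 in the 9. The integrin Itgae (CD103), a marker of tissue cDC1s, was found in 22 of 22, 6 of 19 and 1 of 9 cells, with medians of 452, 0 and 0 CPM. Naaa, a lysosomal amidase high in this lineage, was found in 22, 14 and 1 cells, with medians of 755, 339 and 0 CPM.

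Of the transcription factors, Irf8 did not separate the 22 cells from the Siglech cells, and Batf3 was found mostly in the 22 cells. Irf8 ran from 443 through 774 to 1664 CPM in the 22 cells and from 750 through 1434 to 2157 in the 9 Siglech cells, and these ranges overlapped. In the 19 cells its median was 113 CPM (0 to 1664). Batf3 had UMIs in 20 of the 22 cells, 7 of the 19 and 0 of the 9 Siglech cells, sets of unequal depth. It ran from 0 to 337 CPM in the 22 and from 0 to 412 in the 19, so these ranges overlapped. The 0 of 8 Siglech cells in the library labelled KPC-shZEB1 allows a share of up to about 37.5% of cells with a UMI. This bound is 3 divided by the number of cells and is not an exact interval. Flt3 was found in 19, 7 and 8 cells. Zeb2, a transcription factor that opposes the cDC1 fate, was lowest in the 22 cells, at a median of 141 CPM, against 478 in the 19 and 1572 in the 9.

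The 9 Siglech cells held Clec9a but no Xcr1. All 9 had Clec9a (2 to 8 UMIs), and Xcr1 was 0 in each. The plasmacytoid list, fixed as markers of another cell type that the gate could hold, summed to 7074 to 14828 CPM in these cells, against 0 to 507 in the 22 cells and 0 to 4050 in the 19. Tcf4, the transcription factor that specifies plasmacytoid dendritic cells, ran from 3257 through 3603 to 4823 CPM, against a highest value of 225 in the 22 cells. Runx2 ran from 240 through 958 to 1378 CPM, and Ccr9, a homing receptor, from 85.8 through 459 to 1437. Ly6d was in 8 of the 9 cells, up to 5405 CPM. These cells thus go against the cDC1 label, and are called Siglech cells here and given no other name.

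The 19 cells with 2 to 4 UMIs were a mixture whose cells differed from each other. In the KPC-shV library 2 of them carried the endothelial list at 5356 and 4159 CPM, where the highest of the 22 cells was at 160. In the library labelled KPC-shZEB1 1 cell carried the tumor and epithelial list at 10985 CPM with 131 Krt18 UMIs and no Ptprc, where the highest of the 22 cells was at 570. Cd209a, a type 2 dendritic cell marker, was found in 4 of the 19 cells and in 0 of the 22. Ptprc, the pan-leukocyte gene CD45, was missing in 2 of the 19 cells and present in all 22 and all 9.

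Beside the threshold, Wdfy4 changed in steps. In cells that met all else with exactly 1 Xcr1 or Clec9a UMI (29 and 57 cells) it stood at 56.1 and 38.5 CPM pooled, and in gated cells with exactly 2 (5 and 12 cells) at 187 and 152. Pooled Cst3 was at 1291 and 834 just outside the gate and at 1567 and 1388 just inside it. Both are far below the 22 cells, where pooled Wdfy4 was at 1563 and 1491 and pooled Cst3 at 14916 and 17736.

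**Figure D3:**
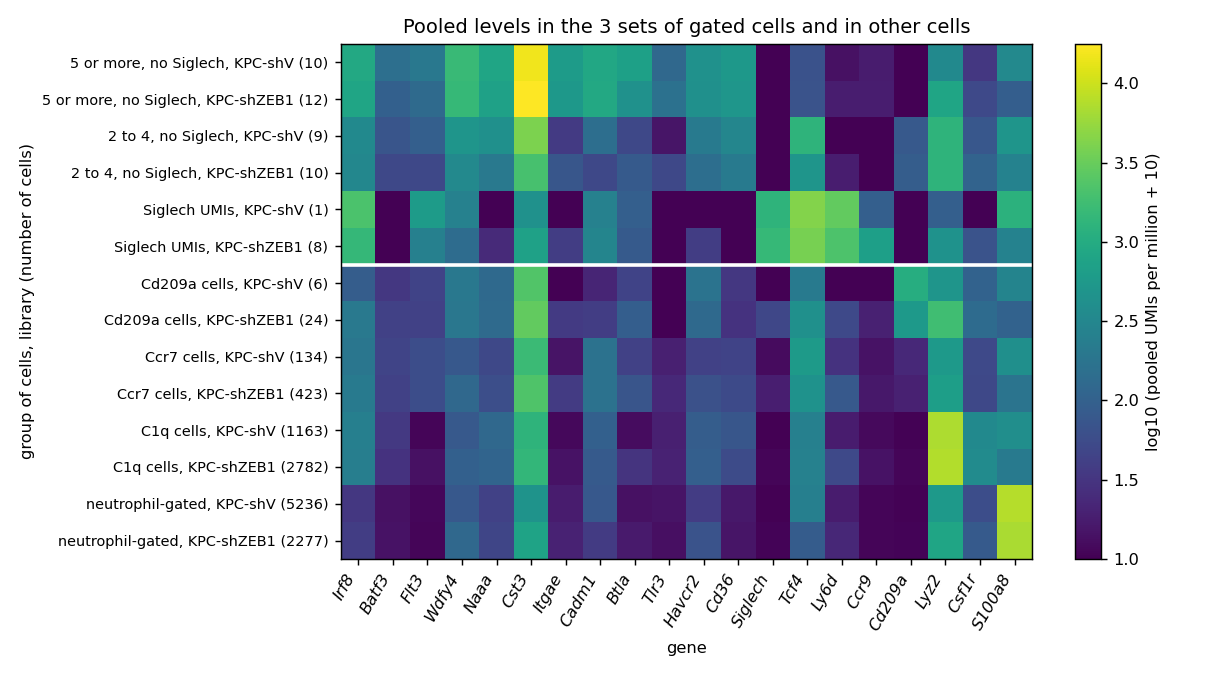
Pooled levels of marker genes (columns) in the 3 sets of gated cells and in comparison groups of each library (rows, with the number of cells), as log10 of CPM plus 10. Wdfy4, Naaa, Cst3 and Itgae are highest in the cells with at least 5 Xcr1 and Clec9a UMIs, while Siglech and Tcf4 are highest in the Siglech cells.

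A UMI in a droplet can come from free RNA, so shares of cells with a UMI were set beside neutrophil-gated cells, which should lack the cDC1 genes. Wdfy4 was found in 17 of 20 and 26 of 30 gated cells, and in 23.2% and 27.3% of neutrophil-gated cells, whose median depth was 3382 and 3010 UMIs. After each cell was thinned to 1000 UMIs, the shares were 70.0% and 43.3% against 7.33% and 10.5%. Flt3 was found in 70.0% and 66.7% of gated cells against 0.497% and 0.395%, and after thinning in 10.0% and 16.7% against 0.0955% and 0.176%. Cst3 was in every gated cell, yet also in 66.9% and 80.1% of neutrophil-gated cells, so its presence alone marks nothing and its level is the measure. Batf3, in 65.0% and 46.7% of gated cells before thinning, had no UMI left in any thinned gated cell.

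Against other class II cells, the gated cells were led by genes of the cDC1 program and by a group of less familiar genes. The comparison pooled UMIs per gene in each library, added 10 CPM, and counted a gene as higher or lower when log2 of the ratio reached 1 in size with the same sign in both libraries. Of 18538 genes with at least 30 UMIs, 284 were higher (1.53%) and 639 lower (3.45%), with a median log2 ratio of -0.08 in each library. Since the gate chose the cells from the same counts, the values describe the cells and test nothing. Other class II cells included 1163 and 2782 cells over the C1q limit and 421 and 1424 with Cd79a, genes of macrophages and of B cells.

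The 10 genes with the largest ratios were Ccser1, Itgae, Tbc1d8, Wdfy4, Pkib, Gm36723, Htr7, Cst3, Cd36 and Ckb. Itgae stood at 336 and 313 CPM in gated cells and at 2.79 and 9.51 in other class II cells, a log2 ratio of 4.76 and 4.05. Wdfy4 stood at 1072 and 943 against 48.5 and 82.6, and Cst3 at 9968 and 10519 against 796 and 1182. Each of these 3 was at least 8-fold higher in both libraries.

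Several of the others are not usual cDC1 labels. Ccser1, a gene named only for its coiled-coil serine-rich protein, stood at 513 and 360 CPM against 11.8 and 12.2. Pkib, an inhibitor of protein kinase A, stood at 1239 and 947 against 45.4 and 86.1. Htr7, a serotonin receptor, stood at 1077 and 952 against 61.6 and 98.5. Their log2 ratios, 3.15 to 4.58, lay within the 3.14 to 4.76 of Itgae, Wdfy4 and Cst3. Tbc1d8, a Rab GTPase regulator, stood at 570 and 780 against 40.5 and 60.6, and Cd36, a scavenger receptor used to take up dead cells, at 418 and 339 against 28.3 and 29.6.

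The 3 cDC1 lists were chosen with results of these data known, and their counts are read against the 1.53% of all genes. Of 8 transcription factors 4 were higher (Batf3, Bcl6, Irf8 and Zbtb46) and 0 lower, with a median log2 ratio of 1.11 and 0.90. Of 13 surface and sensing genes 9 were higher (Btla, Cadm1, Dpp4, Flt3, Havcr2, Itgae, Kit, Ly75 and Tlr3), with a median of 1.81 and 2.03. Of 12 other identity genes 9 were higher, with a median of 1.87 and 2.25. No gene of the 3 lists was counted as lower, and Zeb2 came nearest, at -1.13 and -0.76.

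Among these, Btla, an inhibitory receptor of the immunoglobulin family, stood at 407 and 272 CPM against 13.6 and 37.8. Cadm1, an adhesion molecule that marks cDC1s across species, stood at 550 and 566 against 173 and 131. Tlr3, the sensor of double-stranded RNA, stood at 65.0 and 97.5 against 11.4 and 12.4. Zbtb46 stood at 80.1 and 83.6 against 18.3 and 31.3, and Gpr141b, whose promoter is shown above, at 28.2 and 48.8 against 0.10 and 0.48. Id2 (353 and 165 against 234 and 211) and Nfil3 (149 and 125 against 130 and 134), both needed early in cDC1 development, did not reach the fold. Cd8a, which marks lymphoid tissue cDC1s, had 2 and 8 UMIs in all.

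**Figure D4:**
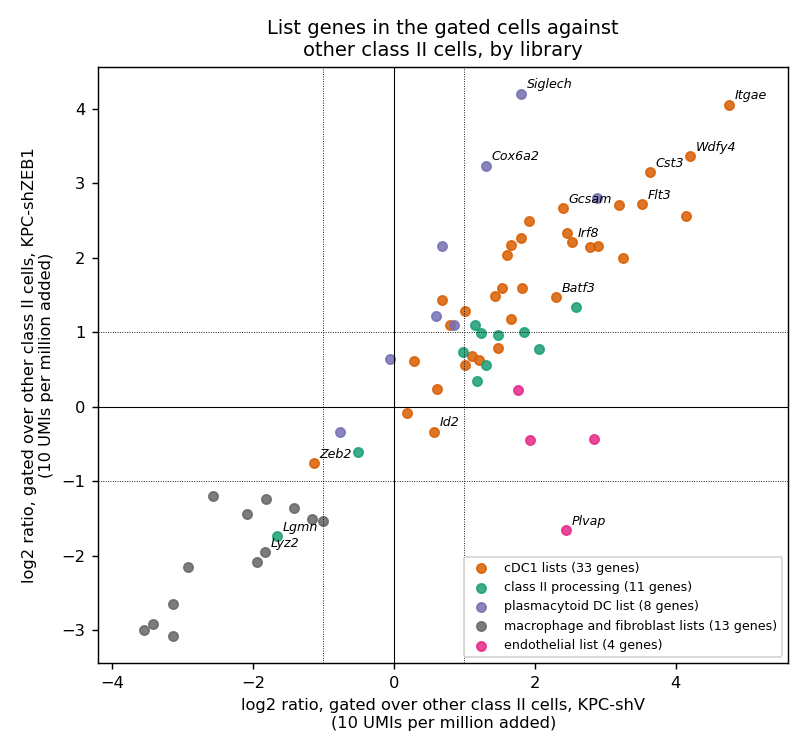
Log2 ratio of gated over other class II cells in the KPC-shV library (x axis) and in the library labelled KPC-shZEB1 (y axis) for genes of the cDC1, class II processing, plasmacytoid, macrophage, fibroblast and endothelial lists, by color, with dotted lines at the fold used. Most cDC1 genes lie in the upper right, with Itgae at 4.76 and 4.05, and the macrophage and fibroblast genes in the lower left.

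Antigen presentation genes were split. Of 20 genes of the class I and cross-presentation list 3 were higher, the immunoproteasome subunits Psmb8 (399 and 615 CPM against 166 and 273) and Psmb9 (347 and 360 against 86.8 and 123) and the proteasome activator Psme1 (303 and 457 against 140 and 220). The median of the list was 0.06 and 0.24. The class I genes H2-K1 (1085 and 1333 against 1555 and 1682) and B2m (858 and 1112 against 1449 and 1536) did not reach the fold. Of 11 class II processing genes 3 were higher, H2-DMa, H2-Oa and H2-Ob, which load and edit peptides, and 1 was lower, the endosomal protease Lgmn (128 and 99.8 against 424 and 358).

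Cytokine and chemokine genes were mostly not raised. Of 20 genes tested 1 was higher and 5 lower, with a median of -0.26 and -0.55. The higher one was Ccl17, a ligand of Ccr4, at 743 and 734 CPM pooled against 74.5 and 154. Within the 22-cell set Ccl17 ran from 0 through 141 to 12260 CPM and from 0 through 231 to 4268. The next highest KPC-shV cell of that set stood at 4454, so a few cells weighed heavily in the pooled level. Lower were Ccl5, Cxcl10, Il10, Il15ra and Il6, and Il6 stood at 10.8 and 13.9 against 104 and 115. Il12b, which encodes the shared subunit of interleukins 12 and 23, had 10 and 17 UMIs in all, or 21.7 and 39.5 CPM against 9.06 and 28.1. Cxcl9 was at 253 and 371 CPM pooled, and other class II cells were at 298 and 361. In the KPC-shV library 76.9% of these Cxcl9 UMIs came from 1 cell without Ptprc, which carried the endothelial list at 4159 CPM. The median gated cell was at 28.3 and 80.8 CPM of Cxcl9.

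Activation, interferon and uptake genes varied by member. Of 16 maturation and costimulation genes 0 were higher and 1 lower, Fscn1, an actin-bundling gene of migrating dendritic cells, at 23.8 and 27.9 CPM against 90.9 and 72.8. Of 12 inhibitory ligands and receptors Pdcd1lg2 (PD-L2) was higher, at 184 and 339 against 66.9 and 87.4, and Nectin2 lower. Of 14 type I interferon response genes 0 were higher and 2 lower (Ifih1 and Isg15), and of 15 interferon gamma response genes 1 was higher, Serpina3g. Of 12 dead cell uptake genes Cd36 and Timd4 were higher and Apoe, Axl, Itgb5, Lrp1 and Mertk lower, the last 5 being genes that macrophages use. Of 20 chemokine and growth factor receptor genes, Csf2rb, the common beta chain of the GM-CSF receptor, was higher at 574 and 917 against 238 and 290, and Csf1r, the macrophage growth factor receptor, lower. None of 18 cell cycle genes was counted in either direction, and of 10 stress and dissociation genes Atf3 and Egr1 were lower.

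Markers of other cell types differed by list. All 8 macrophage genes were lower than in other class II cells, as were 5 of 5 fibroblast, 3 of 6 monocyte, 3 of 5 acinar and 2 of 6 B cell genes and 1 of 6 tumor and epithelial genes. None of 7 T cell, 6 natural killer cell, 8 neutrophil or 4 endothelial genes was counted. The neutrophil list summed to 1599 and 1214 CPM in the gated cells against 1779 and 1310 in other class II cells. The endothelial list summed to 775 and 69.6 CPM against 112 and 110.2, and was thus higher in the gated cells of the KPC-shV library alone. The natural killer genes Klrb1c, Ncr1 and Prf1 were at 0 in all gated cells. Of 8 plasmacytoid genes 3 were higher (Cox6a2, Pacsin1 and Siglech). Of 7 cDC2 genes Cd209a was higher, at 30.3 and 23.2 CPM against 2.97 and 4.98, and Ccl9 and Klf4 were lower.

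The 10 genes with the lowest ratios were Col5a2, Col3a1, Pcdh9, Col1a1, Slit3, Col1a2, Cp, Bank1, C4b and Tnfaip6, with log2 ratios from -2.78 to -3.63. Most are matrix or stromal genes, and Bank1 is a B cell scaffold. Col3a1 stood at 173 and 176 CPM in gated cells against 1605 and 1569. The comparison group thus held cells with fibroblast and B cell transcripts.

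Type 2 dendritic cells were the nearest group by function. Cells gated on at least 2 Cd209a UMIs, with no Xcr1 or Clec9a and the same other limits, numbered 6 and 24. They had 188 and 183 CPM of Wdfy4, 2288 and 2917 of Cst3, and 0 and 26.1 of Itgae. The 22 cells were higher in all 3 genes, at 1563 and 1491, 14916 and 17736, and 589 and 523 CPM. These 3 were picked from the 10 genes with the largest ratios above. Not every gene of the cDC1 lists went the same way, and Zbtb46 was lower in the pooled gated cells than in these Cd209a cells.

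Xcl1, the ligand of Xcr1, was in the lymphocytes of the same tumors. In cells with Ncr1 (77 and 232 cells) it stood at 731 and 530 CPM, and in cells with Cd3e (491 and 1448 cells) at 270 and 131. In the gated cells it had 0 and 2 UMIs.

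The libraries were then compared within the gated cells. The question was whether cDC1s from tumors with the Zeb1 hairpin differed from control. Of 4905 genes with at least 30 UMIs in the gated cells, 171 were higher in the library labelled KPC-shZEB1 (3.49%) and 239 lower (4.87%), with a median log2 ratio of 0.03. Of the cDC1 lists, 1 of 8 transcription factors was counted (Id2, lower at 165 CPM against 353), and 0 of 10 surface genes and 0 of 11 identity genes.

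Genes of the Siglech cells and of a few other cells led this comparison. Siglech cells made up 5.00% of the 20 gated cells and 26.7% of the 30, and their share of kept cells had a ratio of 7.53 (1.01 to 334). Over class II cells the ratio was 3.54 (0.474 to 157), and over kept cells without neutrophil-gated cells 5.09 (0.683 to 226), both with intervals that include equal shares. Siglech stood at 32.5 and 237 CPM, Ly6d at 75.8 and 360 and Cox6a2 at 19.5 and 97.5. Grm8, a glutamate receptor, had 9 and 121 UMIs, all in Siglech cells. The 22-cell set holds no Siglech UMI because the split left those cells out. Cox6a2, which the split did not use, was at 0 there in both libraries.

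Many of the other leading genes came from single cells. Ctrb1, an acinar enzyme, did not, with 7 UMIs in 7 of the 20 cells and 69 UMIs in 25 of the 30 (log2 ratio 2.76). In the library labelled KPC-shZEB1, 1 cell held 95.9% of 49 Nlgn1 UMIs, 96.7% of 60 Cyp7b1 UMIs and 93.5% of 62 Pik3c3 UMIs, each figure being the share of the top cell for that gene, and 1 cell held 75.0% of 120 Krt19 UMIs. In the KPC-shV library, 1 cell held 86.6% of 404 Fabp4 UMIs, 88.7% of 141 Cyyr1 UMIs and 89.7% of 107 Prex2 UMIs. Fabp4, Emcn, Plvap, Cyyr1 and Ptprm are genes of blood vessel endothelium. All 4 endothelial genes tested were lower in the library labelled KPC-shZEB1 (median log2 ratio -2.87) and all 5 tumor and epithelial genes tested were higher (median 2.27), and both lists were highest in the cells with 2 to 4 UMIs named above.

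Within the 22 cells that carried the cDC1 lists, few cDC1 genes reached the fold between the libraries and several interferon gamma response genes did. Of 2994 genes tested, 111 were higher in the library labelled KPC-shZEB1 (3.71%) and 114 lower (3.81%), with a median log2 ratio of 0.01. Wdfy4 was at 1563 and 1491 CPM, a ratio of 0.954 (0.824 to 1.10). Irf8 was at 899 and 804, a ratio of 0.894 (0.734 to 1.09). Of the 3 cDC1 lists only Clnk was counted, with 9 and 22 UMIs.

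Of 7 interferon gamma response genes tested in these cells, 4 were higher in the library labelled KPC-shZEB1, Cxcl9, Gbp2 and Iigp1 among them, 0 were lower, and the median log2 ratio was 1.42, beside the 3.71% and 0.01 of all genes. Cxcl9 ran from 0 through 0 to 80.9 CPM over the 10 KPC-shV cells, with UMIs in 4 of them. Over the 12 cells of the library labelled KPC-shZEB1 it ran from 0 through 82.9 to 1381, with UMIs in 10. The groups overlapped at low values, and the pooled ratio was 17.7 (7.29 to 55.9), or 3.59 on the log2 scale with 10 CPM added. With any 1 cell left out, that log2 ratio stayed between 3.03 and 3.96. The highest cells stood at 1381 and 1214 CPM (33 and 31 UMIs) and the next at 506. Leaving out 1 cell thus always kept at least 1 of the highest, and the pooled ratio rests largely on them.

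Gbp2, a guanylate-binding protein, ran from 0 through 17.2 to 243 CPM in 5 cells and from 0 through 91.8 to 795 in 11, a ratio of 3.97 (2.01 to 8.57). Iigp1, an immunity-related GTPase, ran from 0 through 0 to 56.2 in 4 cells and from 0 through 77.7 to 1266 in 8, a ratio of 11.7 (4.27 to 45.0). The libraries overlapped in both genes. In each of the 3 genes the median and the highest cell were higher in the library labelled KPC-shZEB1. With any 1 cell left out the log2 ratio stayed between 1.08 and 2.52 for Gbp2 and between 2.19 and 3.099 for Iigp1.

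Outside the gate, of Cxcl9, Gbp2 and Iigp1, only Gbp2 in neutrophil-gated cells reached the fold. In other class II cells the log2 ratios between the libraries were 0.27 for Cxcl9, 0.79 for Gbp2 and 0.47 for Iigp1. In neutrophil-gated cells they were 0.96, 1.42 and 0.11. Whether the difference of the 22 cells is larger than these was not tested, since each library is 1 tumor.

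**Figure D5:**
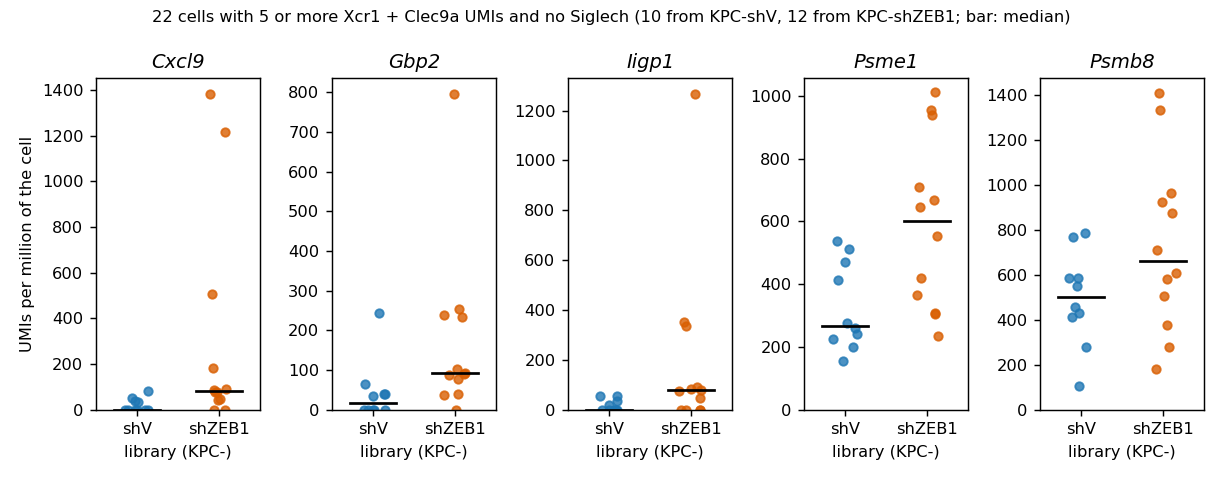
CPM of each cell (y axis, 1 panel a gene) for Cxcl9, Gbp2, Iigp1 and the proteasome genes Psme1 and Psmb8 in the 22 cells with at least 5 Xcr1 and Clec9a UMIs and no Siglech, 10 from KPC-shV and 12 from the library labelled KPC-shZEB1, with the median as a bar. Cxcl9 reaches 80.9 in the first and 1381 in the second, and the cells of the libraries overlap.

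Genes of antigen presentation were split. Psme1 ran from 156 through 268 to 537 CPM and from 234 through 600 to 1013, a log2 ratio of 0.86, and Psmb8 had a log2 ratio of 0.69, both under the fold. Nlrc5, the transactivator of class I genes, was counted as higher (47.1 and 138 CPM pooled), and Ciita, the transactivator of class II genes, as lower (145 and 58.6). Pdcd1lg2 ran from 56.2 through 183 to 623 and from 0 through 451 to 1986, a log2 ratio of 1.34. Ccl17 was decided by 1 KPC-shV cell at 12260 CPM: its log2 ratio was -0.23, and from -0.84 to 1.14 with any 1 cell left out.

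Genes of macrophages, acinar cells and neutrophils also differed between the libraries in the 22 cells, not all in the same direction. Apoe, a lipid carrier abundant in tumor macrophages, ran from 121 through 267 to 477 CPM and from 561 through 964 to 3049. Its log2 ratio was 1.99 in the 22 cells, 0.88 in other class II cells and 1.30 in neutrophil-gated cells. Lyz2 was the 1 gene of the 8-gene macrophage list with enough UMIs to be tested and was counted as higher. The list summed to 138 to 890 CPM in the 10 cells (median 388) and to 531 to 2277 in the 12 (median 778), and Adgre1, which defines mouse macrophages, was at 0 in the KPC-shV cells. C1qa and C1qb, limited by the gate, stood at 66.7 and 74.6 CPM in the first library and 272 and 188 in the second. The acinar enzyme Ctrb1 had a log2 ratio of 2.72 in the 22 cells, 2.49 in other class II cells and 1.39 in neutrophil-gated cells, and S100a8, a neutrophil gene, had -1.84. The part of macrophage or free RNA in the interferon gamma response genes was not tested.

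Of 7 cytokine and chemokine genes tested in the 22 cells 2 were lower and 1 higher, with a median log2 ratio of -0.04. Of 8 cell cycle genes 3 were lower and 0 higher, with a median of -0.26, beside 3.81% of all genes tested. Ccl3 (475 and 172 CPM pooled) and Ccl4 (2886 and 1126), chemokines that attract T cells and monocytes, were lower in the library labelled KPC-shZEB1, and neutrophil-gated cells held Ccl4 at 5208 and 4842. The cell cycle genes Stmn1, Top2a and Ube2c were lower, and Top2a ran from 0 through 28.3 to 1249 CPM in the 10 cells and from 0 through 0 to 209 in the 12. The highest summed cell cycle counts were 199 and 143 UMIs in 2 of the KPC-shV cells, against a highest of 100 UMIs among the 12. With 1 cell left out, the log2 ratio of Top2a came to -0.92, that of Ccl4 to -0.98 and that of Nlrc5 to 0.79, so these 3 calls rest on 1 cell each.

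The limit on Ccr7 removed more cells from the library labelled KPC-shZEB1. So did the C1q limit alone, with 17 and 41 cells, a ratio of 2.27 (1.26 to 4.26) over kept cells. Over class II cells that ratio was 1.07 (0.592 to 2.00), with an interval that includes equal shares. Class II cells with Ccr7, under the C1q limit and without Cd3e or Cd79a, numbered 134 and 423. Their ratio was 2.97 (2.44 to 3.64) over kept cells and 1.40 (1.15 to 1.71) over class II cells. Cells that met every other limit but had Ccr7 numbered 3 and 20, which is 0.0256% and 0.161% of kept cells. Their ratio was 6.27 (1.86 to 33.0) over kept cells and 2.95 (0.874 to 15.5) over class II cells. Without neutrophil-gated cells it was 4.25 (1.26 to 22.3). Their median depth was 16895 and 18378 UMIs. The 3 KPC-shV cells had 1 Ccr7 UMI each, and the 20 others had 1 to 34 (median 3), with 1 UMI in 6 of them. Wdfy4 was found in 3 of 3 and 16 of 20, at least 5 Xcr1 and Clec9a UMIs without Siglech in 1 and 8, and Siglech in 0 and 4.

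Activation genes that were low in the gated cells were higher in this group. The 20 cells of the library labelled KPC-shZEB1 held Il12b at 388 CPM, Ccl22, another ligand of Ccr4, at 439 and Fscn1 at 221, with Wdfy4 at 953, Irf8 at 897, Cst3 at 11434 and Itgae at 286. Il12b was concentrated, with 167 UMIs in 5 of the 20 cells and 88 of them in 1 cell, and it had 0 UMIs in the 3 KPC-shV cells. With 3 cells in that library, the makeup of the group could not be compared between the tumors.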

How the data were processed

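Each tumor was dissociated with collagenase and trypsin and sequenced as 1 10x Genomics 3′ library. Per the submitters' processing notes, the authors used Cell Ranger 7.0.1 with mm10, and the deposited matrices hold raw UMI counts of 32285 genes for 12594 and 13271 barcodes. No normalization had been applied. Gene coordinates come from GENCODE on GRCm38, in which 32158 of the gene identifiers were found.

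Counts were read in Python 3.11.15 (numpy 2.4.6, scipy 1.17.1, pandas 2.3.3, scanpy 1.11.5) and summed over the cells of a group in each library. Sums were scaled to CPM, UMIs of a gene per 1000000 UMIs, with exact Poisson intervals, shares were given Clopper-Pearson intervals, and ratios of the libraries exact intervals conditional on the summed count, all at 95%. Log2 ratios had 10 CPM added, genes needed at least 30 UMIs, and a log2 ratio of 1 was the fold used. Genes of the gate were kept out of all counts. Doublets were not removed, since the gate has no such step: Scrublet scores above 0.2 marked 315 and 343 kept cells and no gated cell, and 2 and 0 barcodes above 60000 UMIs met the other limits. Thinning drew 1000 UMIs per cell with a fixed seed. The scripts were tested on simulated data.

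The cells, gene lists and gates were chosen with earlier results of these data known. Named genes are members of the lists, the 10 largest and 10 smallest ratios against other class II cells, ranked by the smaller size over the libraries, and the 8 largest and 8 smallest between the libraries. The split into 3 sets, and genes named within them, were chosen after the values were seen. Alternatives changed the gate, the comparison group, the pseudocount, the filter and the cells left out. Some items are not reported here.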

Additional observations from a re-analysis of the deposited data

Results flagged for a closer look

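Plvap, an endothelial gene, differed in direction between the libraries when gated cells were set against other class II cells, with a log2 ratio of 2.44 in the KPC-shV library and -1.66 in the library labelled KPC-shZEB1. The difference was not tested. Of its 73 UMIs in the KPC-shV gated cells, 70 came from 2 cells, and it had 0 UMIs in the gated cells of the other library.

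Cells outside the gate only because they had a Ccr7 UMI were not part of the comparisons above. Their share of kept cells was 6.27 times as high in the library labelled KPC-shZEB1 as in the KPC-shV library, from 20 and 3 cells. Over class II cells the ratio was 2.95 (0.874 to 15.5).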

How the results depend on the processing

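The ratio of the shares of gated cells ran from 0.512 to 0.961 over class II cells and from 1.09 to 2.20 over kept cells, but was 0.955 over kept cells without neutrophil-gated cells. Other gates were not run over that denominator, and no ratio was computed without cells with 3 or more cell cycle UMIs. The counts of genes did not keep their size. Against other class II cells, 284 genes were higher and 639 lower. With a minimum of 1 Xcr1 and Clec9a UMI (136 cells) they were 74 and 70, and with a minimum of 3 (33 cells) 1138 were lower. Without the C1q limit (108 cells) 133 were higher. With 1 CPM added they were 552 and 2490, and the higher genes' part of all counted went from 30.8% to 18.1%. Without cells with 3 or more cell cycle UMIs (14 cells) 1778 were lower, and against cDC2-gated cells alone 138. The cell cycle limit is a raw count not scaled to depth, and cells without Mki67 or Top2a UMIs could reach it. Between the libraries, 171 genes were higher and 239 lower. These became 112 and 109 with a minimum of 3, and 43 and 65 with at least 100 UMIs per gene. They were 508 and 619 with no minimum per gene, and 190 and 142 with a minimum of 1. With the cell cycle limit (1 and 13 cells left) they were 229 and 121. The higher genes' part went from 41.7% to 57.2% with a minimum of 1, to 65.4% with the cell cycle limit and to 60.7% with the gate applied after thinning. Against other class II cells the higher genes' part was 51.4% with a minimum of 1, 19.4% without the C1q limit and 12.97% with the cell cycle limit. It was 41.8% against C1q cells alone and 63.5% against cDC2-gated cells alone. Alternatives chosen after seeing the data left out Siglech cells, cells under 5 UMIs or the deepest cell of each library. In the 22 cells 1399 genes were lower than in other class II cells, and 111 were higher and 114 lower between the libraries.

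Log2 ratios of named genes that changed sign were Pcdh9 0.68 and, between the libraries, Top2a 0.38 with a minimum of 1 UMI, and Apoe 0.13, Ccl5 0.89, Csf1r 0.36 and Lyz2 0.63 without the C1q limit. Fscn1 was at 0.25 against C1q cells alone. Against cDC2-gated cells alone Col3a1 was at 0.081, Slit3 at 0.031, Col1a2 at 0.30, Zbtb46 at -0.74 and Apoe at 0.17. Siglech was at -0.31 in both sets without Siglech cells, by construction. Of the other values of named and listed genes, 83 fell under the fold against other class II cells and 26 between the libraries. The causes were not tested. A limit of 0 C1q UMIs left 0 and 1 cells and gave no value. No paired analysis was possible because each group had 1 library. With 50 cells, genes under 30 UMIs and differences in abundance under about the width of the intervals were out of reach.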
